A study of Mus musculus with 6 samples.

Results

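The 9 enzymes described here take part in the recovery or disposal of pyrimidine nucleosides, their nucleotides and bases. They are the deaminases Cda and Dctd, the kinases Uck1, Uck2, Dck, Tk1 and Tk2, the phosphorylase Upp1 and the catabolic dehydrogenase Dpyd. All 9 genes of 34797 gene names on the array had a probe, with 13 of 55681 probes between them. The set was chosen on measured values, because Cda had been seen to fall in TIA1 KO MEF, so every difference of Cda is given as a description with no test, that between TIAR KO and WT included, since the WT arrays took part in the choice.

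Pyrimidine salvage rebuilds nucleotides from cytidine, uridine, deoxycytidine and thymidine that come from RNA and DNA turnover or from outside the cell. Kinases trap a nucleoside by phosphorylating it, deaminases turn cytosine compounds into uracil compounds, and phosphorylases and dehydrogenases send the bases to breakdown. Cda, cytidine deaminase, is also known as the enzyme that inactivates cytidine analogue drugs such as cytarabine and gemcitabine, while Dck is the kinase that activates them.

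RNA came from immortalized murine embryonic fibroblasts (MEF) of 3 groups with 2 arrays each: wild type cells with the strain label W4 (WT MEF), cells without the RNA-binding protein TIA1 from BALB/c (TIA1 KO MEF) and cells without its relative TIAR from C57BL/6 (TIAR KO MEF). No group was labelled as treated. Genotype, strain, cell line and position on the slide changed together, since both TIA1 KO arrays lay in a row apart from the other 4 arrays, and these cannot be told apart. The methods name different biological samples for the arrays of a group, and with 2 of them a p-value measures only their spread.

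The knocked out genes were looked at first. Tia1 on the WT arrays was 10.72 and 8.54 (normalised log2 intensity), as against 7.87 and 8.44 for TIA1 KO and 9.56 and 9.58 for TIAR KO arrays, so that the TIA1 KO arrays were the lowest of the 6 and the second WT array, at 8.54, was close to them. The difference between TIA1 KO and WT did not pass the test (limma adjusted p = 0.288). For Tia1 only 1 of the 2 TIA1 KO arrays was well above background. Tial1, which encodes TIAR, was 13.22 on the 1 usable WT array, 14.07 and 13.69 on TIA1 KO arrays and 9.57 and 11.60 on TIAR KO arrays. The fall in TIAR KO MEF did not pass the test either (−2.63 ± 0.87 log2, SE, adjusted p = 0.200). These are the brightest of 3 Tia1 and of 2 Tial1 probes, and whether they lie in the deleted parts of the genes was not tested. The paper reports loss of each mRNA and protein in its knockout, by RT-PCR and western blot.

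Signal over background differed between groups. The median raw intensity was 458.1 and 217.6 units on the TIA1 KO arrays, against 119.5 to 151.8 on the other 4. The scanner software rated 16021 and 19996 of 55681 probes well above background on the TIA1 KO arrays and 23569 to 26295 on the others. A dim signal was therefore harder to separate from background in TIA1 KO MEF.

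Cda was bright in WT MEF, lower in TIAR KO MEF and close to background in TIA1 KO MEF. Its single probe lies on mm9 at chr4:137894742-137894801 on the minus strand and was designed on NM_028176. Both WT arrays were high, at 12.83 and 13.19 on the normalised log2 scale. The TIAR KO arrays read 11.79 and 12.01, and those of TIA1 KO 7.78 and 8.50. The 3 groups did not overlap, and the order was WT, TIAR KO, TIA1 KO. With 2 arrays a group such a separation was common, at 65.2% of probes between TIA1 KO and WT, 49% between TIAR KO and WT and 59.9% between the knockouts. In raw units the probe gave 8393 and 10240 in WT MEF over a local background of 50 and 51, and 3452 and 3320 in TIAR KO MEF over 49 and 45. In TIA1 KO MEF it gave 551.7 and 347.7 over a local background of 256 and 58, and only 1 of the 2 arrays was rated well above background. The authors' own table of log2 values gave 12.86 and 13.21 in WT, 7.28 and 8.41 in TIA1 KO and 11.88 and 12.10 in TIAR KO MEF.

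The mean of Cda thus differed by −4.87 log2 between TIA1 KO and WT MEF (8.14 against 13.01), and by 3.76 log2 between TIAR KO and TIA1 KO MEF, TIAR KO being higher. Both rest on a TIA1 KO mean in which 1 of the 2 arrays, at 7.78, was not well above background. These are the values that chose the gene. They ranged from −6.03 to −4.51 and from 3.40 to 4.63 over 16 alternative settings each. Between WT and TIAR KO MEF, both well above background on each array, Cda was 2.17-fold lower in TIAR KO (−1.12 ± 0.19 log2, SE, n = 2 arrays per group), and it lay from −1.50 to −0.93 over 16 alternatives. The WT values in this step are those that chose the gene.

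**Figure D1:**
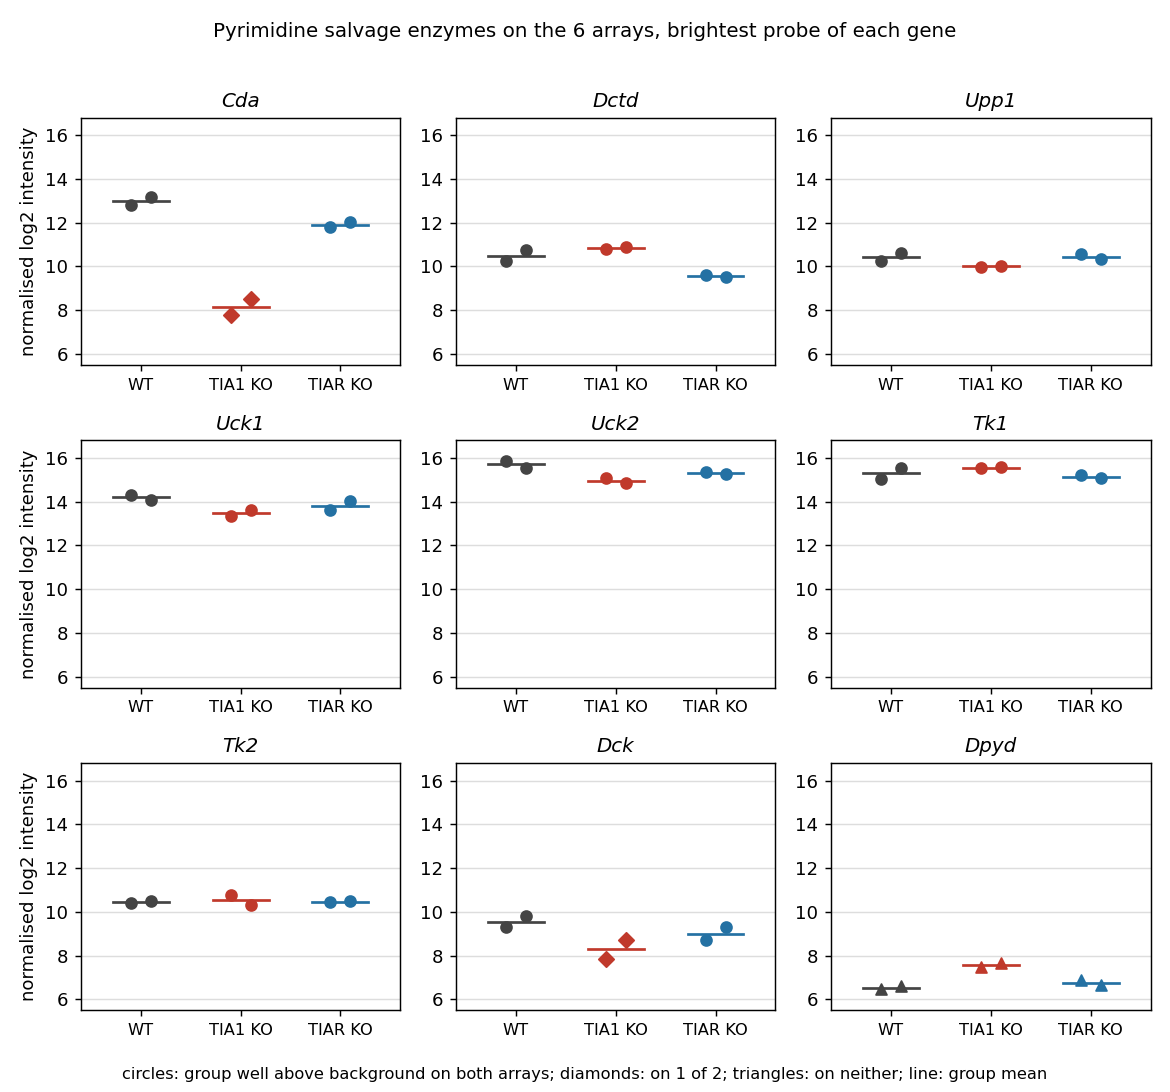
Normalised log2 intensity of the brightest probe of each of the 9 enzymes on the 6 arrays, 2 points per group with a line at their mean; the marker shape gives on how many of the 2 arrays the probe was well above background. Cda separates into 3 levels, at 13.01, 11.90 and 8.14, whereas Tk2 lies between 10.33 and 10.75 on every array.

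A promoter window is shown for Cda, on which the set was chosen, and for Dctd, which passed both thresholds between the knockouts. Each is the 250 bases before a RefSeq start on GRCm38.p6, written 5′ to 3′ on the gene's strand: chr4:138367956-138368205 (minus strand) for Cda and chr8:48109708-48109957 (plus strand), 1 of 3 windows of Dctd. Capitals mark matches on either strand to 5 short motifs: the TATA box as TATAAA, the CCAAT box as CCAAT, the GC box as GGGCGG, an E2F motif as TTTNNCGC and the core of interferon response elements as GAAANNGAA.
Cda: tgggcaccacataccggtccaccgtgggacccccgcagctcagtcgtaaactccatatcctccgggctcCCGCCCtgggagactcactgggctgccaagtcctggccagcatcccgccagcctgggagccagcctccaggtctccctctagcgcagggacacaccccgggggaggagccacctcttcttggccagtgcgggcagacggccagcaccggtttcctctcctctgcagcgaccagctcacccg
Dctd: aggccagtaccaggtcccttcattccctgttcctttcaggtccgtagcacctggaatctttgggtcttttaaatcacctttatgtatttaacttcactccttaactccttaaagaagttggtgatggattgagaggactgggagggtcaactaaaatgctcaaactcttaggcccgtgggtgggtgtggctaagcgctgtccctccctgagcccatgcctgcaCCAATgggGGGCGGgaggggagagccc
The Cda window held 1 GGGCGG, read on the opposite strand 181 bases before the start, and none of the other 4 motifs. The Dctd window held CCAAT 27 bases and GGGCGG 19 bases before the start, not overlapping. Of 32851 windows of the same length in the table, 32.7% held the GC box, 33.8% the CCAAT box, 12.4% the TATA box, 4.28% the E2F motif and 7.13% the interferon core. Of the 14 windows of the 9 enzymes, 10 held GGGCGG and 2, both of Dctd, held CCAAT. These 2 Dctd windows overlap and share the same sites, and 2 overlapping Upp1 windows share 1 GGGCGG. Counted by gene, 8 of 9 held GGGCGG and 1 held CCAAT. The third Dctd window held neither. G and C made up 68% of the Cda window, against a median of 52.4% over all windows. These matches describe letters only, and no binding was measured.

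Dctd, deoxycytidylate deaminase, makes dUMP from dCMP and so feeds thymidylate synthesis. Its brighter probe read 10.26 and 10.74 in WT, 10.80 and 10.89 in TIA1 KO, and 9.60 and 9.50 in TIAR KO MEF. The TIAR KO arrays were below the other 4. The difference was −1.29 ± 0.15 log2 (SE) against TIA1 KO MEF, past both thresholds (limma adjusted p = 0.0365), and −0.95 ± 0.20 against WT MEF, not past them (adjusted p = 0.0554). The call between the knockouts held in 7 of 16 alternatives, with −0.31 under common-median scaling, and the difference from WT was called in 2 of 16, common-median scaling (−1.29) and leaving out WT replicate 1.
A second probe for the same transcript, NM_178788, gave another picture: 9.87 and 10.37 in WT, 8.16 and 9.06 in TIA1 KO, and 9.16 and 9.62 in TIAR KO MEF. Here the TIA1 KO arrays were the lowest, with a difference of −1.51 ± 0.38 log2 (SE) against WT MEF (adjusted p = 0.114), and TIAR KO exceeded TIA1 KO by 0.78 (adjusted p = 0.302). The first probe spans chr8:49197399-49222612 and the second lies at chr8:49226475-49226534 (both mm9, plus strand). The direction between the knockouts thus depended on the probe. The second probe was well above background on only 1 of the 2 TIA1 KO arrays, so its differences from TIA1 KO MEF rest partly on a dim value. With the median over both probes the difference was −0.26 (adjusted p = 0.521), and without TIAR KO replicate 1 or 2 the adjusted p of the first probe was 0.308 or 0.328.

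The uridine-cytidine kinases, which carry out the first phosphorylation of uridine and cytidine, were highest in WT MEF. Uck2 read 15.87 and 15.53 in WT, 15.06 and 14.84 in TIA1 KO, and 15.37 and 15.24 in TIAR KO MEF. Uck1 read 14.31 and 14.07 in WT, 13.35 and 13.61 in TIA1 KO, and 13.63 and 14.01 in TIAR KO MEF. For both genes each knockout lay below WT, as 39.2% of all probes did for TIA1 KO and 27% for TIAR KO cells (47% and 34.2% of those well above background in a group). The differences were under 2-fold and none passed the test. They were −0.75 ± 0.20 for Uck2 and −0.71 ± 0.19 for Uck1 in TIA1 KO (log2, SE, adjusted p = 0.122 and 0.119), and −0.39 ± 0.18 and −0.37 ± 0.20 in TIAR KO MEF (adjusted p = 0.312 and 0.390). Under common-median scaling, where the median over all probes was −0.67, both passed in TIA1 KO, Uck2 at −2.32 and Uck1 at −2.30.

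With all arrays and the normalization used here, the deoxynucleoside kinases did not pass the test in any comparison. Dck, which phosphorylates deoxycytidine and several purine deoxynucleosides, read 9.30 and 9.79 in WT, 7.84 and 8.73 in TIA1 KO, and 8.70 and 9.29 in TIAR KO MEF. Its TIA1 KO mean differed from WT by −1.26 ± 0.38 log2 (SE), over 2-fold but with an adjusted p of 0.138. It was −0.82 without TIA1 KO replicate 1 (adjusted p = 0.172), −1.71 without TIA1 KO replicate 2 (adjusted p = 0.0228) and −1.91 under common-median scaling, past both thresholds in the last 2 of these settings. Wherever an array is left out, the 1 array that remains in its group is assumed to vary like the pair of the other group, from which the spread is taken. Only 1 of the 2 TIA1 KO arrays was well above background. TIAR KO overlapped with TIA1 KO MEF.
Tk1, the cytosolic thymidine kinase of proliferating cells, read 15.03 and 15.54 in WT, 15.53 and 15.58 in TIA1 KO, and 15.21 and 15.07 in TIAR KO MEF. Its WT values overlapped both knockouts. The differences from WT were 0.27 ± 0.23 and −0.14 ± 0.21 log2 (SE, adjusted p = 0.455 and 0.793), although the first became −1.30 under common-median scaling of the arrays. The 2 other Tk1 probes, on transcripts named only by Ensembl identifiers, were not past the test either.
Tk2, the mitochondrial thymidine kinase, read 10.41 and 10.51 in WT, 10.75 and 10.33 in TIA1 KO, and 10.44 and 10.47 in TIAR KO MEF. The 6 arrays spanned 0.42 log2 and the groups overlapped. The differences from WT were 0.08 ± 0.21 and −0.01 ± 0.14 log2 (SE), the first again turned, to −1.27, by common-median scaling.

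Upp1, uridine phosphorylase, which splits uridine into uracil and ribose phosphate, read 10.25 and 10.61 in WT, 9.98 and 10.03 in TIA1 KO, and 10.55 and 10.35 in TIAR KO MEF on its brighter probe. The TIA1 KO arrays were the lowest, with a difference of −0.42 ± 0.19 log2 against WT (SE, adjusted p = 0.236), while TIAR KO overlapped WT MEF (0.02 ± 0.19). A dimmer probe for the same transcript, NM_009477, went the other way: it read 7.26 and 7.31 in WT, 8.80 and 7.47 in TIA1 KO, and 7.55 and 7.61 in TIAR KO MEF. It was well above background on 0 of 2 WT, 1 of 2 TIA1 KO and 2 of 2 TIAR KO arrays (adjusted p = 0.304 for TIA1 KO against WT). The median over both probes differed by 0.21 between TIA1 KO and WT, and under common-median scaling the brighter probe differed by −1.73 (adjusted p = 0.00267). Dpyd, dihydropyrimidine dehydrogenase, the first enzyme of uracil and thymine breakdown, was not well above background on any of the 6 arrays. It read 6.47 and 6.60 in WT, 7.50 and 7.68 in TIA1 KO, and 6.89 and 6.65 in TIAR KO MEF, and no fold is given.

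Cda was left out of the count of enzymes past both thresholds (adjusted p under 0.05 and over 2-fold), since it was not tested. In TIAR KO MEF 0 of the other 8 passed, against a background of 5.76% of all 55681 probes (2.37% lower and 3.39% higher), with 1 of 8 (Dctd) at an unadjusted p under 0.05, against 20.2% of all probes. In TIA1 KO MEF 0 of the 8 enzymes besides Cda passed (limma). At an unadjusted p under 0.05 were 4 of 8 (Dck, Uck1, Uck2 and Dpyd), against 27.8% of all probes. Dpyd is counted although it was not well above background on any array, so its p compares dim values only. The share of all probes called in TIA1 KO MEF was 3.54% (1.36% lower and 2.18% higher). Nothing is read from it, since the gene set was chosen on that contrast. Between the knockouts 1 of the 8 passed, Dctd, which was lower in TIAR KO, against 3.35% of probes (1.72% higher and 1.63% lower).
Among probes well above background in at least 1 group, where 8 of the 9 enzymes lie, the shares called were 7.56% in TIA1 KO against WT, 12.7% in TIAR KO against WT and 7.31% between the knockouts. The median log2 difference of the 8 enzymes besides Cda, dim Dpyd included, was −0.17 for TIA1 KO and −0.26 for TIAR KO cells. Over all probes the medians were −0.09 and −0.02, and over those well above background in a group −0.26 and −0.05. Both comparisons share the WT arrays.

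**Figure D2:**
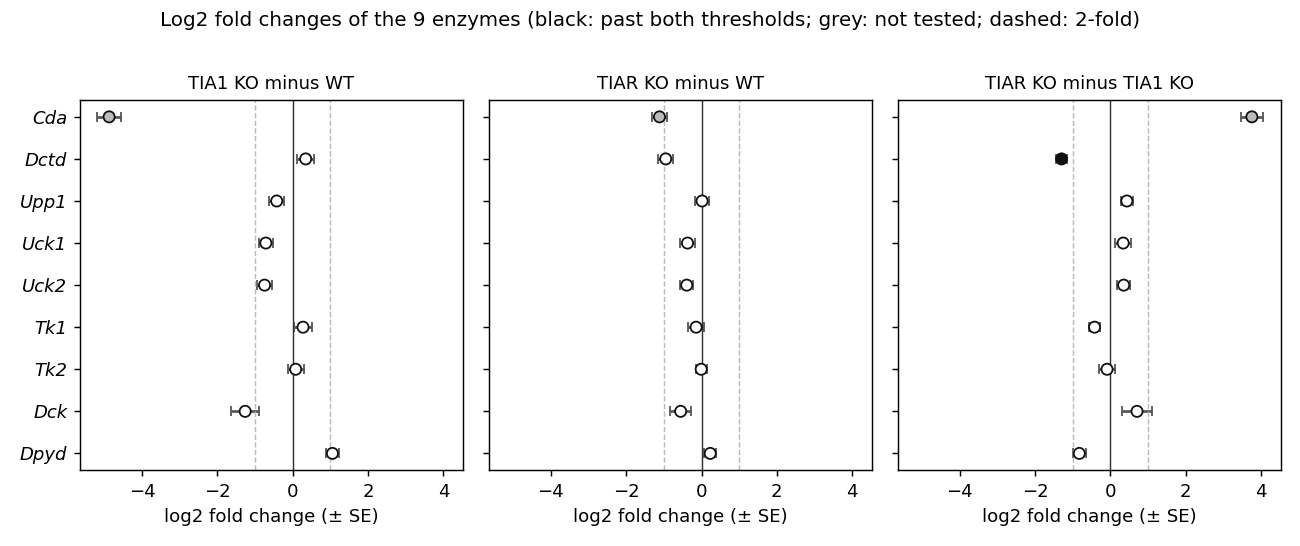
Log2 fold change (horizontal axis, ± SE) of the 9 enzymes in the 3 comparisons; black points passed both thresholds, grey points are Cda, which was not tested, dashed lines mark 2-fold. Cda stands at −4.87, −1.12 and 3.76, and Dctd is the 1 black point, at −1.29 between the knockouts. Dpyd was not well above background on any array, so its points are differences of dim values and no fold is read from them.

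The surrounding nucleotide pathways were read from 7 gene lists with 42 genes. Against WT, 1 of 42 was higher and 2 lower in TIA1 KO MEF, and 0 higher and 1 lower in TIAR KO MEF (limma), where 3.54% and 5.76% of all probes were called, with 15 and 14 at an unadjusted p under 0.05, which 27.8% and 20.2% of all probes reached. The genes that passed were Cmpk2, Nt5e and Aprt, joined by Dguok between the knockouts.

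Cmpk2, the mitochondrial CMP and UMP kinase and a known interferon-induced gene, was lower in both knockouts. It read 8.43 and 8.34 in WT, 6.67 and 6.72 in TIA1 KO, and 6.94 and 6.86 in TIAR KO MEF. The WT arrays were well above background, and none of the knockout arrays was. As the knockout values are only bounds, the fall was at least 2.01-fold for TIA1 KO and at least 2.48-fold for TIAR KO cells. The limma adjusted p of 0.0203 and 0.00453 belong to the fitted differences, tested for any difference and not for these bounds. Each fold is set against the dimmest signal still well above background. The bound uses the higher of that signal and the probe's own on each array. The call in TIA1 KO held in 11 of 16 alternatives and that in TIAR KO in 15 of 16. Neither passed the test for a fold above 2, where the adjusted p in TIAR KO was 0.321 (limma). In TIA1 KO the adjusted p was 0.299 or 0.289 without WT replicate 1 or 2, and the difference was −0.98 with processed signals (adjusted p = 0.309). Of the other 6 salvage kinases and phosphorylases, 0 passed in either knockout. Among them Dtymk, thymidylate kinase, differed from WT by −0.42 and 0.32 log2, and Cmpk1, the cytosolic CMP and UMP kinase, by 0.17 and −0.22.

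Nt5e, the ecto-5′-nucleotidase CD73 that releases nucleosides outside the cell, rose in TIA1 KO MEF. It read 9.80 and 9.81 in WT, 11.57 and 11.49 in TIA1 KO, and 9.48 and 9.32 in TIAR KO MEF. The TIA1 KO arrays lay above the other 4, by 1.73 ± 0.15 log2 over WT (SE, limma adjusted p = 0.0188), and TIAR KO differed from TIA1 KO by −2.13 ± 0.16 (adjusted p = 0.0145). Without WT replicate 1 or 2 the first adjusted p was 0.296 or 0.292, and without TIAR KO replicate 1 or 2 the second was 0.251 or 0.241. Each call held in 10 of 16 alternatives. Under common-median scaling the difference from WT was 0.44 (adjusted p = 0.469), and with processed signals it was 1.91 (adjusted p = 0.0750). The other 7 nucleotide breakdown genes, among them the nucleotidases Nt5c, Nt5m and Nt5c3 and the dNTP hydrolase Samhd1, did not pass in any comparison.

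The transporters that bring nucleosides in, 6 genes of the Slc28 and Slc29 families, had 0 called in any comparison. Slc29a1, the equilibrative transporter ENT1, read 15.55 and 15.46 in WT, 15.56 and 15.14 in TIA1 KO, and 15.48 and 15.34 in TIAR KO MEF. The groups overlapped for it. De novo pyrimidine synthesis had 0 of 5 called and the catabolic enzymes downstream of Dpyd 0 of 2, neither of these 2 well above background in any group. Cad, the multifunctional enzyme that opens the de novo route, read 8.06 and 8.52 in WT, 6.82 and 7.21 in TIA1 KO, and 7.88 and 7.94 in TIAR KO MEF. Its TIA1 KO arrays were not well above background (adjusted p = 0.0844 against WT).

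In dTMP and deoxynucleotide synthesis 0 of 7 passed both thresholds. In TIA1 KO MEF 6 of 7 had a mean below WT, as 57.3% of all probes and 65.2% of those well above background in a group did, and 2 of 7 had an unadjusted p under 0.05, against 27.8% of all probes. In TIAR KO MEF all 7 had a mean below WT, against 53.6% of all probes, and 3 of 7 had an unadjusted p under 0.05, against 20.2%. The medians were −0.50 and −0.49 log2 in this order. Rrm1, the large subunit of ribonucleotide reductase, had an adjusted p of 0.0499 in TIAR KO MEF but differed by −0.89 log2, under 2-fold. Tyms, thymidylate synthase, differed by −1.23 ± 0.37 in TIA1 KO (SE, limma adjusted p = 0.138) and −0.63 ± 0.14 in TIAR KO MEF (adjusted p = 0.0642). It was well above background on only 1 of the 2 TIA1 KO arrays. Of 13 S-phase genes, read because Tk1 and these enzymes follow the cell cycle, 0 passed in any comparison, with medians of −0.34 and −0.40 log2 and 0 and 5 of them at an unadjusted p under 0.05 (27.8% and 20.2% of all probes).

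In purine salvage, the parallel route, 3 of 7 in TIA1 KO MEF had an unadjusted p under 0.05 (limma), against 27.8% of all probes. In TIAR KO MEF 5 of 7 did, against 20.2%. Past both thresholds was 1 of 7, lower in TIA1 KO MEF, against 1.36% of all probes. This was Aprt, adenine phosphoribosyltransferase, which read 17.41 and 17.48 in WT, 16.30 and 16.37 in TIA1 KO, and 16.69 and 16.84 in TIAR KO MEF. Both knockouts lay below WT, with differences of −1.10 ± 0.15 (limma adjusted p = 0.0449) and −0.68 ± 0.15 log2 (SE, adjusted p = 0.0580), and the call in TIA1 KO held in 7 of 16 alternatives. Without WT replicate 1, WT replicate 2 or TIA1 KO replicate 1 its adjusted p was 0.345, 0.345 or 0.0560. Dguok, the mitochondrial deoxyguanosine kinase, read 11.80 and 11.63 in WT, 10.59 and 10.85 in TIA1 KO, and 12.14 and 12.42 in TIAR KO MEF. The knockouts lay on either side of WT and differed from each other by 1.56 ± 0.20 log2 (SE, adjusted p = 0.0403), a call held in 8 of 16 alternatives. Without TIAR KO replicate 1 or 2 its adjusted p was 0.297 or 0.337.

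**Figure D3:**
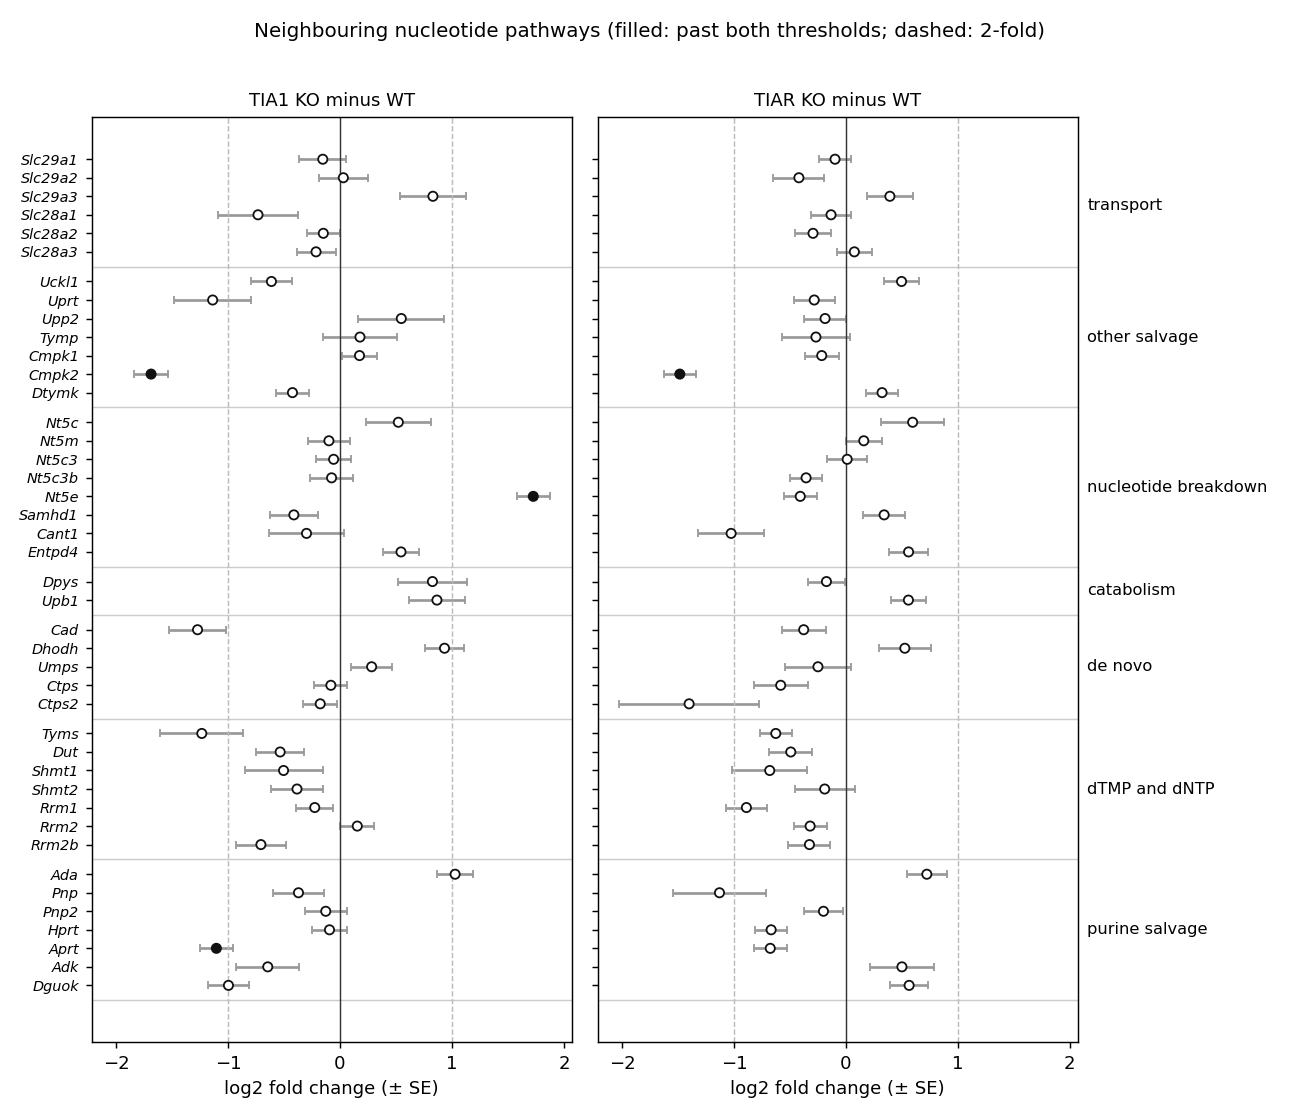
Log2 fold change (horizontal axis, ± SE) against WT of the 42 genes in 7 neighbouring pathways, left TIA1 KO and right TIAR KO MEF; filled points passed both thresholds and dashed lines mark 2-fold. Filled points are Cmpk2 (−1.69), Nt5e (1.73) and Aprt (−1.10) on the left and Cmpk2 (−1.48) on the right; Cmpk2 was near background in both knockouts, so its points stand for falls of at least 2.01- and 2.48-fold. Both panels share the WT arrays.

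Genes beside Cda on chromosome 4 were read to see whether its neighbourhood moved with it. Within 200 kb of the Cda probe lay 11 genes or transcripts, of which 0 passed against WT in either knockout (limma), with 7 of 11 in TIA1 KO and 2 of 11 in TIAR KO MEF at an unadjusted p under 0.05 (27.8% and 20.2% of all probes). Their differences from WT ran from −1.19 to 1.16 log2 in TIA1 KO MEF. The median was −0.47, against −0.09 over all probes and −0.26 over those well above background in a group. Of the neighbours at an unadjusted p under 0.05 in TIA1 KO MEF (limma), Hp1bp3, Kif17, Pink1, Fam43b and Camk2n1 had a mean below WT. Eif4g3 and Ddost had a mean above it. Ddost, a subunit of the oligosaccharyltransferase 26.8 kb away on mm9, read 15.79 and 15.83 in WT, 16.23 and 16.22 in TIA1 KO, and 15.58 and 15.62 in TIAR KO MEF. The TIA1 KO arrays were its highest. Kif17 and Fam43b, 37.4 and 55.3 kb away, had the order of Cda, with no overlap of the groups. Kif17 read 8.54 and 8.36 in WT, 8.15 and 7.94 in TIAR KO, and 6.98 and 7.59 in TIA1 KO MEF. Fam43b read 7.61 and 8.29, 7.42 and 7.36, and 6.93 and 6.97 in the same groups. Neither was well above background on a TIA1 KO array, nor was Fam43b on a TIAR KO array.
Pink1, a mitochondrial kinase 25.4 kb away, read 9.76 and 10.72 in WT, 8.83 and 9.28 in TIA1 KO, and 10.94 and 11.25 in TIAR KO MEF. Its order was TIAR KO, WT, TIA1 KO, unlike that of Cda. Only 1 of the 2 TIA1 KO arrays was well above background for Pink1. Between the knockouts Pink1 was higher in TIAR KO by 2.04 ± 0.24 log2 (SE, adjusted p = 0.0354), a call held in 9 of 16 alternatives; without TIAR KO replicate 1 or 2 its adjusted p was 0.298 or 0.331. Camk2n1, an inhibitor of CaM kinase II 118.6 kb away, was well above background on both TIAR KO arrays and on neither TIA1 KO array. It was at least 1.93-fold higher in TIAR KO. Its fitted difference was called (limma adjusted p = 0.0359, not a test of that bound), and the call held in 10 of 16 alternatives. Without TIAR KO replicate 1 or 2 its adjusted p was 0.306 or 0.331.

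The genes with a profile over the 6 arrays nearest to that of Cda were Prim2, Cyba, Siglecg, Hoxd8 and Col18a1, in this order, among 25308 centred profiles. Their Euclidean distances were 0.483, 0.577, 0.583, 0.716 and 1.06 log2. Prim2, the large subunit of DNA primase, read 13.03 and 13.13 in WT, 8.00 and 8.45 in TIA1 KO, and 12 and 11.69 in TIAR KO MEF. It stepped down in the same order as Cda. Cyba, a subunit of the phagocyte NADPH oxidase, read 12.70 and 12.97 in WT, 7.29 and 7.76 in TIA1 KO, and 11.33 and 11.25 in TIAR KO MEF. In TIA1 KO MEF Cyba, Siglecg and Hoxd8 were well above background on 0 of 2 arrays and Prim2 and Col18a1 on 1 of 2, so that there the likeness rests on values near background. These genes were picked for their likeness to Cda on 6 arrays of 3 cell populations, and the likeness is a description.

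Markers of cell identity differed between the groups to which Cda was compared. Of 12 fibroblast markers, TIA1 KO cells had 7 higher than WT and TIAR KO cells had 8, against 2.18% and 3.39% of all probes. In TIA1 KO against WT no probe, these and the other markers included, was called without WT replicate 1, without WT replicate 2 or with processed signals. Col3a1, a fibrillar collagen, read 9.52 and 9.08 in WT, 15.59 and 15.65 in TIA1 KO, and 15.16 and 16.65 in TIAR KO MEF. Pdgfra, a receptor of mesenchymal cells, read 6.37 and 6.40 in WT, not well above background, 10.05 and 10.23 in TIA1 KO, and 11.68 and 11.51 in TIAR KO MEF. Lum and Fap were not well above background in any group, whereas Vim, vimentin, lay between 17.24 and 17.89 on all 6 arrays. The summed linear level of the list was 498200 and 536100 in WT, 1098000 and 1054000 in TIA1 KO, and 1238000 and 1269000 in TIAR KO MEF, with S100a4 the brightest gene in WT and Col1a2 in TIA1 KO MEF. The other fibrillar collagens were bright in WT MEF too: Col1a1 read 15.29 and 15.09, Col1a2 16.35 and 15.52, and Col5a1 12.50 and 12.32.

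The knockouts also differed from each other, with 3 of the 12 fibroblast markers higher in TIAR KO, against 1.72% of all probes. Thy1, a surface protein of fibroblasts, read 6.63 and 6.98 in WT, 7.11 and 7.48 in TIA1 KO, and 14.84 and 14.74 in TIAR KO MEF. It was at least 131-fold higher in TIAR KO than in TIA1 KO, where neither array was well above background. Dcn, decorin, read 6.57 and 6.62 in WT, 9.24 and 9.29 in TIA1 KO, and 15.67 and 15.82 in TIAR KO MEF. It was well above background on 1 of 2 WT, 1 of 2 TIA1 KO and 2 of 2 TIAR KO arrays. The third was Pdgfra, with a difference of 1.46 log2. Without TIAR KO replicate 1 or 2 no probe was called between the knockouts.
Among all probes 2.18% were higher and 1.36% lower in TIA1 KO than in WT, 3.39% higher and 2.37% lower in TIAR KO than in WT, and 1.72% higher and 1.63% lower in TIAR KO than in TIA1 KO. Macrophage markers had 2 of 10 higher in TIA1 KO (Itgam and Tyrobp) and 1 lower in TIAR KO MEF (Cd14). Between the knockouts 1 was higher in TIAR KO (Cd68) and 3 lower (Cd14, Itgam and Tyrobp). Tyrobp was well above background on only 1 of the 2 TIA1 KO arrays and on no WT or TIAR KO array. The summed level of the macrophage list was 11610 and 10870 in WT, 21970 and 19510 in TIA1 KO, and 10360 and 10380 in TIAR KO MEF. Itgam was the brightest in both knockouts and Cd14 in WT, while Ptprc, Emr1, Lyz2 and Fcgr3 were not well above background in any group. Of 9 epithelial markers 2 were higher for TIA1 KO and 3 for TIAR KO cells, and 2 were higher in TIAR KO than in TIA1 KO (Cdh1 and Krt18), with Epcam well above background on 1 of 6 arrays and Krt19 the brightest. The summed level of that list was 6013 and 6308 in WT, 11070 and 11730 in TIA1 KO, and 9135 and 8519 in TIAR KO MEF. Endothelial markers had 0 of 6 called, with Kdr the brightest and Cdh5 not well above background in any group. Of 7 neutrophil markers S100a8 was lower in TIAR KO MEF, with Elane the brightest and S100a9, Mpo and Ngp not well above background in any group. The summed levels lay between 3192 and 4059 for the endothelial list and between 1575 and 2449 for the neutrophil list. The part of cell identity in the Cda difference was not tested, and fewer cells of a type cannot be told apart from less RNA per cell.

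**Figure D4:**
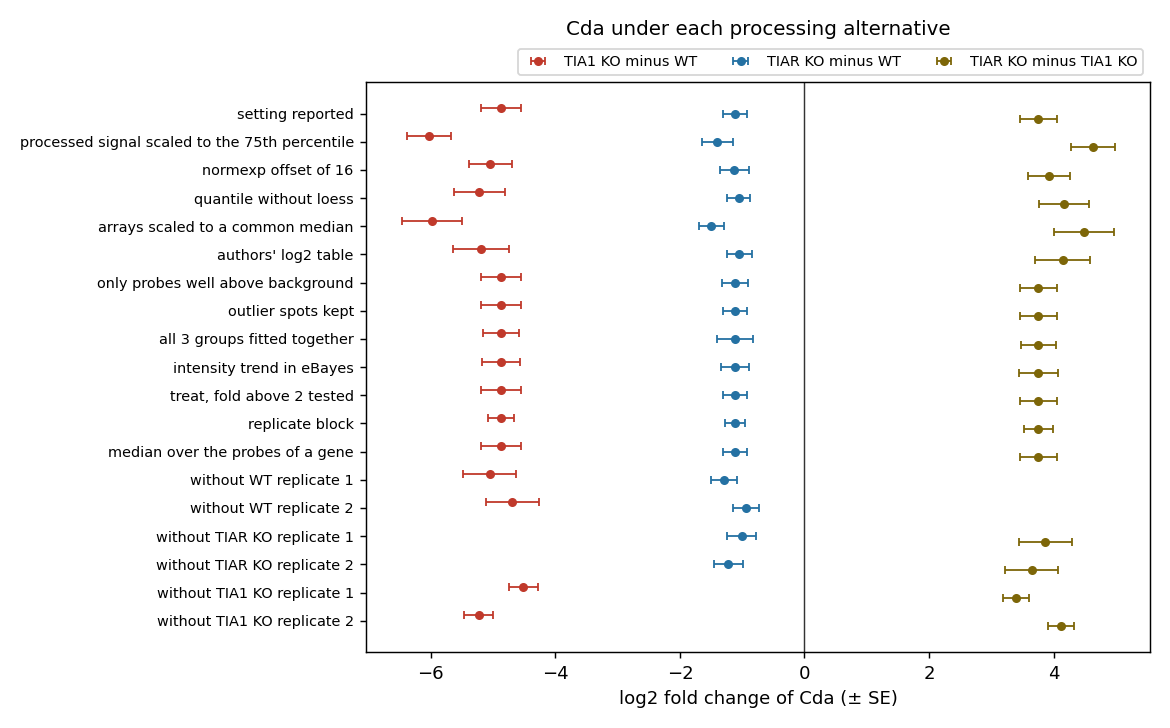
Log2 fold change of Cda (horizontal axis, ± SE) in each of the 3 comparisons under the setting reported and each alternative processing, 1 row per setting; rows that leave out an array have no point where that array is not in the comparison. TIA1 KO minus WT lay between −6.03 and −4.51, TIAR KO minus WT between −1.50 and −0.93, and TIAR KO minus TIA1 KO between 3.40 and 4.63, with no change of sign.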

How the data were processed

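Total RNA of 6 MEF samples was labelled with Cy3 and hybridized to 1-colour mouse arrays. For each array the authors deposited the scanner software's spot intensity values with local background and quality flags (Agilent Feature Extraction, not normalized), and a table of log2 values per probe. Their methods name normexp background correction with an offset of 50, loess, quantile normalization and limma. They also name a global normalization, which was not applied here.

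Here normexp with offset 50 was run on the spot intensities. After log2, loess (1 pass, each array set against the average array) and then quantile normalization followed. Control and outlier spots were left out and spots of a probe averaged. Each comparison was fitted on its own 4 arrays with limma 3.58.1 in R 4.3.3 (Benjamini-Hochberg over 55681 probes; called at adjusted p under 0.05 and over 2-fold). The fit was tested on simulated data. A gene was read from its brightest probe. Correlations with the authors' log2 table were 0.997 to 0.9995 for the same array. The authors' table, other background corrections, scalings, fits and omitted arrays were alternatives.

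The members, gene lists and tests were chosen with earlier results of these data known. The genes named are the knocked out genes, all 9 enzymes, pathway genes that were called with their higher group clear of background, genes near Cda (other pathway genes, neighbours and markers as examples, chosen after their values were seen), and the 5 nearest profiles with a named gene. A further gene of the lists is not reported here. Promoters came from a RefSeq table of GRCm38.p6, in which all 9 enzymes had a window (14 in all), and probe positions from the files (mm9). The number of arrays and, for dim probes, the background limit the precision. Arrays with the same replicate number hardly deviated together (correlations of deviations 0.10, 0.05 and −0.04). This cannot show whether they were run together, and the fits took them as unpaired.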

Additional observations from a re-analysis of the deposited data

How the results depend on the processing

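The Cda difference kept its direction in all 3 comparisons under each alternative, and so did the differences of Uck1, Uck2 and Dck. Of 51 log2 differences of 17 genes, 2 turned and then passed both thresholds, both in TIA1 KO against WT with arrays scaled to a common median: Tk1 (−1.30) and Tk2 (−1.27). Under it the median over all probes for TIA1 KO against WT was −0.67 (−0.09 reported), and it was 1.98 with processed signals scaled to the 75th percentile. Differences of Upp1, Tk1, Tk2, Dctd, Dpyd, Cmpk2 and Col3a1 that were not called changed sign in some other alternative without passing.

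The fitted values of 1 of the 9 enzymes met both thresholds in TIA1 KO against WT, of 1 in TIAR KO against WT and of 2 between the knockouts. These numbers include Cda, on which the set was chosen, and for Cda they are no test. Without it they are 0, 0 and 1. In the same order and with Cda, processed signals gave 0, 0 and 1, where 0, 2526 and 1509 of all 55681 probes were called. Common-median scaling gave 7, 2 and 4, and 1 fit of all 3 groups gave 2, 0 and 2. In TIA1 KO and between the knockouts these last settings also called more probes than reported, as counted below. Nothing is read from such counts about the enzymes. A test for a fold above 2 gave 0 in TIAR KO and 1 between the knockouts, where a normexp offset of 16, the authors' log2 table and the median over probes also gave 1. Leaving out 1 array gave 0 to 2 enzymes in TIA1 KO, 0 to 2 in TIAR KO and 0 to 2 between the knockouts. Without WT replicate 1 or 2, no probe of all 55681 was called in TIA1 KO, and without TIAR KO replicate 1 or 2 none between the knockouts, against 1969 and 1866 with all arrays. With the replicate number as a block they were 0 between the knockouts and 1 in each knockout against WT, where 0 enzymes besides Cda met them. That block gave 674 probes in TIA1 KO, 3300 in TIAR KO (3206 without it) and 0 between the knockouts. The labels do not say whether arrays with equal numbers were run together.

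Probes called in TIA1 KO were 0 with processed signals, 15801 with common-median scaling, 1309 with the authors' table, 3986 with all 3 groups, 440 with the test for a fold above 2, 3060 without TIA1 KO replicate 1 and 10735 without replicate 2. In TIAR KO the test for a fold above 2 gave 1016. Between the knockouts common-median scaling gave 8307, 3 groups 3183, the fold test 409, and leaving out TIA1 KO replicate 1 or 2 gave 3409 or 10087. Of the calls, 61.6%, 58.8% and 51.3% were higher as reported, and 11.9%, 34.4% and 87.2% with common-median scaling. With processed signals 8.28% were higher between the knockouts. The cause of these shifts was not tested. Dim genes are limited by the background of the TIA1 KO arrays.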
